A study of Mus musculus with 55 samples.

Results

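Lymphocyte marker genes were followed in the white fat around the gonads of mice that carry Huntington's disease knock-in alleles. They are 9 of the 43432 genes in the count table, taken by symbol: Cd3d, Cd3e, Cd4 and Cd8a for T cells, Cd79a, Cd79b and Ms4a1 for B cells, and Gzma and Nkg7 for cytotoxic cells. All 9 passed the filter on low counts, which kept 21113 genes. The libraries were messenger RNA of C57BL/6 mice aged 6 months, wild type (WT) or with 1 Htt copy replaced by a knock-in allele. The alleles Q20, Q80, Q92, Q111, Q140 and Q175 are named for their number of CAG repeats, and all knock-in mice were heterozygous. Genotype and sex together gave 14 groups, 13 of 4 libraries and WT females of 3, or 27 female and 28 male libraries in all. WT and Q20 mice shared housing, and mice of every other genotype were housed with their own genotype. A knock-in allele sits at the gene's own place and so is carried by every cell of the body.

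T and B lymphocytes recognise antigen through surface receptors that signal through partner chains. In T cells these partners are the CD3 chains, and the coreceptors CD4 and CD8 bind the molecules that present antigen. In B cells the partners are CD79A and CD79B, while natural killer cells and cytotoxic T cells carry granules with proteases such as granzyme A. White fat holds resident lymphocytes, and visceral fat depots also carry small lymphoid clusters rich in B cells. In a bulk sample, more cells of a type and more RNA per cell cannot be told apart.

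Library totals ran from 35094400 to 51363600 counts. The depot's own markers were found in every library but at unlike levels. The adipocyte list (Adipoq, Fabp4, Plin1, Cidec and Lep) summed to between 2612 and 30696 CPM (counts scaled to the library size), with a median of 20467. It was lowest in Q92 male 1 (2612), Q140 male 1 (4546), Q80 male 2 (8529), Q92 male 4 (9085) and Q80 male 1 (10187). In Q92 male 1, Q140 male 1 and Q80 male 1, genes of the epididymis and testis summed higher than that, to 16266, 26158 and 17828 CPM. The sex genes of 2 Q140 libraries, female 1 and male 4, went against their labels, and both were kept under their labels in the values below. WT male 3 and Q111 male 1 had the female sex gene Xist at 27.6 and 15.3 CPM. Their male sex gene Ddx3y was at 43.6 and 60.5 CPM. WT male 3 also held 498 CPM of exocrine pancreas genes (median 12.2), and Q111 male 1 held 152 CPM of female tract genes (median 3.66). Both were kept as well. Libraries of WT and Q175 mice carry library numbers above those of 39 of the 40 others. A comparison of Q20 with WT, of Q175 with Q20, or along CAG length therefore also crosses that numbering, and the parts of numbering and genotype cannot be told apart there.

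Promoters of Cd3d, Cd3e and Cd79a are shown here with the hexamer AGGAAG or its reverse complement, a core bound by Ets-family factors, in capitals. The sequences run from 250 bases before to 50 bases after the gene's start, 5′ to 3′ on the gene's strand, and are from RefSeq on GRCm38.p6. The table held 6 of the 9 members. Those of Cd8a, Gzma and Nkg7 are not shown, and Cd8a and Gzma have no match to the hexamer. Cd3d (chr9:44981536-44981835, plus strand) and Cd3e (chr9:45009562-45009861, minus strand) are neighbouring genes on chromosome 9, with Cd3g on the other side of Cd3d, and Cd79a (chr7:24897247-24897546, plus strand) is the B cell member shown.
Cd3d: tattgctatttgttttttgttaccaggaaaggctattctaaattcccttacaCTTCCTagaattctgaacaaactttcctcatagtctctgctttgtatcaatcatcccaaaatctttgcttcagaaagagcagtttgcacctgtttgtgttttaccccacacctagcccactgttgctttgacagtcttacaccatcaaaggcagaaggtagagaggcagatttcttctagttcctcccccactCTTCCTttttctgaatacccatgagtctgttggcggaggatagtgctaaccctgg
Cd3e: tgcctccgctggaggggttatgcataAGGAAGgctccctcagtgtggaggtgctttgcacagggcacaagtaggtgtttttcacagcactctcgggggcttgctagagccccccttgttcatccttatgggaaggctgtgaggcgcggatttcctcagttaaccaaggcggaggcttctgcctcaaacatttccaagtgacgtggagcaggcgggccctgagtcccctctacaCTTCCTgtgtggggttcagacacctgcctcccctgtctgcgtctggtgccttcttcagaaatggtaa
Cd79a: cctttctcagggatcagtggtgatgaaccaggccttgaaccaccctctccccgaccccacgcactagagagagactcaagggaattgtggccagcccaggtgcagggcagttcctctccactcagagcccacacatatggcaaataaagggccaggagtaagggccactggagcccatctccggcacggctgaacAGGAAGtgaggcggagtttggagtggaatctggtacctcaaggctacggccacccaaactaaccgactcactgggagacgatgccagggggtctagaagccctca
The hexamer was chosen after the sequences were seen and occurred in 4 of the 6 member promoters (Cd3d, Cd3e, Cd79a and Nkg7) and in 35.4% of the 32851 promoters of the table. The octamer ATGCAAAT (1.74% of all promoters), the motif CCCNNGGG (13.7%) and the TATA box TATAAA (13.6%) were searched on both strands and had no match in these 6 windows, whereas the E-box CANNTG matched in all 6 and in 72.3% of all promoters. These matches describe letters only.

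All 9 genes were expressed at a low level, and no library lacked any of them. The lowest count of a member in a library was 5 reads, for Cd8a in Q20 male 3, and the highest was 1887, for Cd79a in Q92 male 2. Levels of different genes are compared here as FPKM, which is scaled for length. By the median over the 55 libraries the order was Cd79b (2.05 FPKM), Nkg7 (1.66), Cd79a (1.53), Gzma (0.974), Cd3d (0.562), Cd4 (0.545), Cd3e (0.509), Ms4a1 (0.467) and Cd8a (0.223). Cd79b, Nkg7 and Cd79a led the order, and the medians of Cd3d, Cd4, Cd3e and Ms4a1 lay closer together than the spread of any of them over libraries (SD 0.659 to 1.83 FPKM). Cd8a, which encodes a chain of the CD8 coreceptor, was the lowest. Cd3e and Ms4a1 overlap annotated antisense genes (Gm48719 and 4930526L06Rik), and whether the counting used strand is not given in the sources used here.

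**Figure D1:**
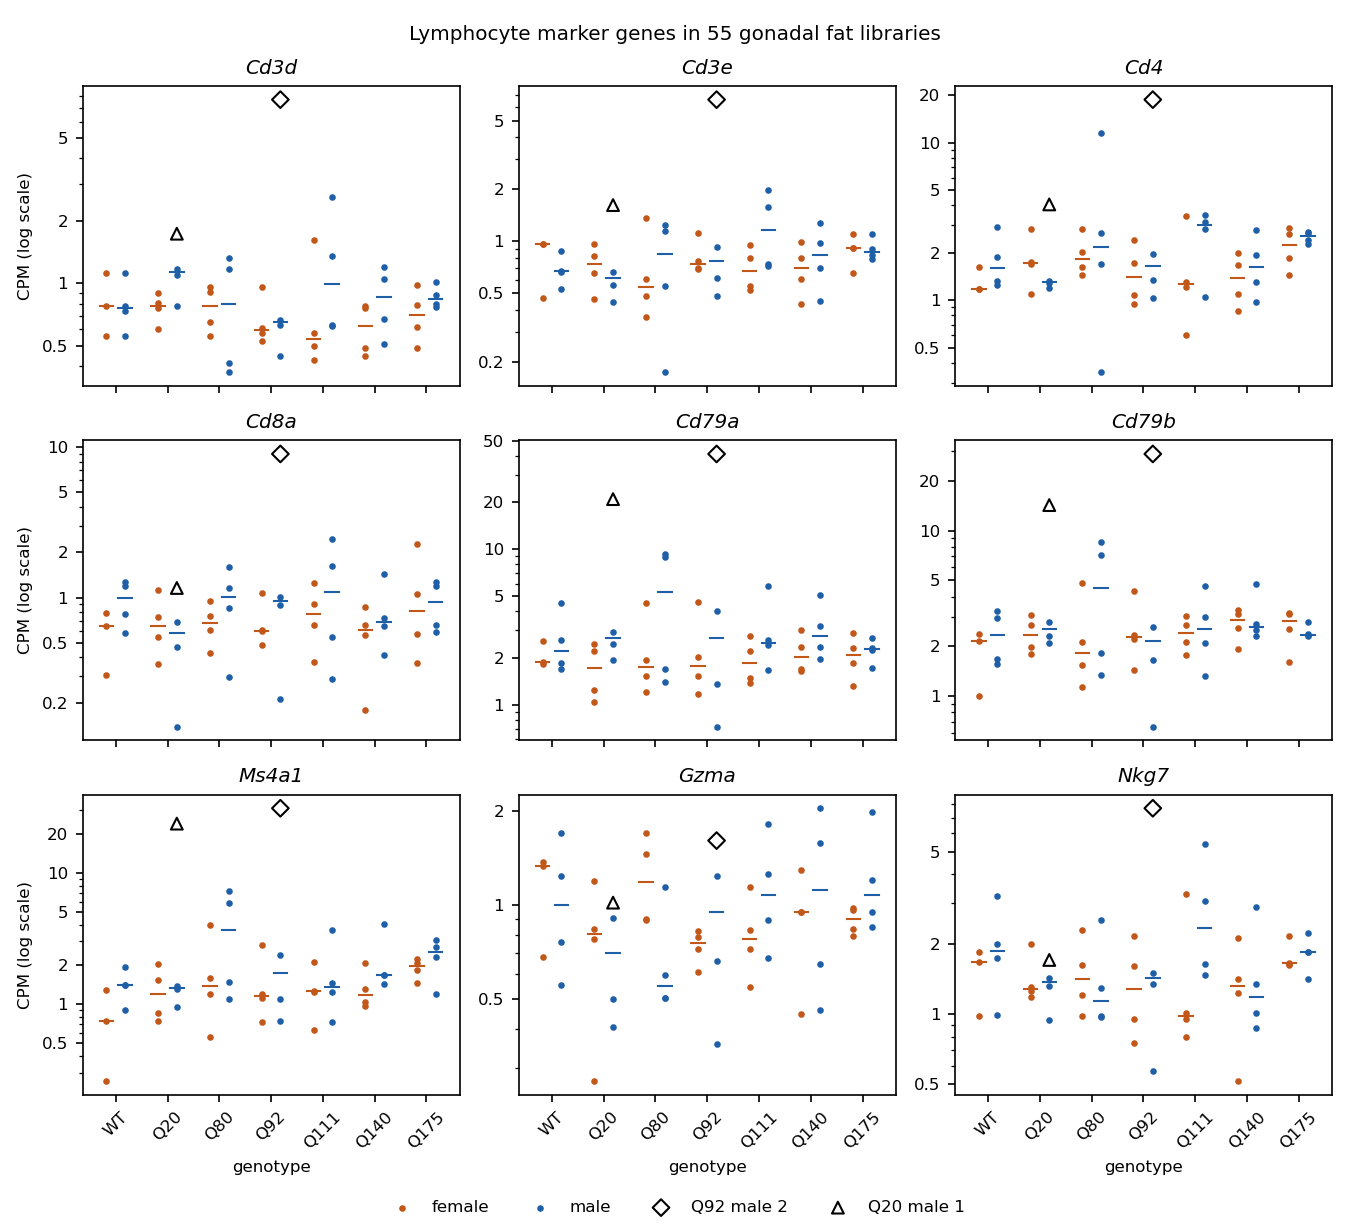
Level of each marker gene in every library, as CPM on a log scale, by genotype along the horizontal axis. Points are libraries, short bars are medians of a genotype and sex, and open symbols mark Q92 male 2 and Q20 male 1. The diamond of Q92 male 2 is the highest point for 8 of the 9 genes, up to 41.1 CPM for Cd79a.

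One library stood far above the rest in nearly all of these genes. In Q92 male 2, Cd79a, a signalling chain of the B cell receptor, reached 41.1 CPM, against 0.720, 4.01 and 1.35 CPM in Q92 males 1, 3 and 4. Ms4a1, which encodes the B cell surface protein CD20, reached 31.2 CPM against 0.741, 2.38 and 1.09 CPM in those males. Cd79b, the partner chain of Cd79a, reached 29.0 CPM against 0.657, 2.64 and 1.65 CPM. For all 3 B cell genes this library exceeded the median of the 55 by between 12.3 and 22.2 times. The T cell genes were high in the same library. Cd4 was at 18.7 CPM, against 1.04, 1.34 and 1.97 CPM in the other Q92 males. Cd8a was at 9.01 CPM, against 0.212, 0.888 and 1.01 CPM. These were 11.0 and 13.1 times the medians of the 55 libraries. Cd3d (7.68 CPM) and Cd3e (6.61 CPM), the CD3 chains, were at 9.99 and 8.57 times their medians. Nkg7, a granule protein of cytotoxic cells, was at 7.70 CPM or 5.23 times the median. Gzma was the exception: at 1.61 CPM, against a median of 0.894, it ranked 6 of 55. Q92 males 1 and 4, set beside this library above, were low in the adipocyte list (2612 and 9085 CPM, median of all 20467). Their genes of the epididymis and testis summed to 16266 and 7722 CPM (median of males 59.7).

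Q20 male 1 stood apart in the B cell genes without a like rise in the others. Ms4a1 was at 23.8 CPM, against 1.38, 0.942 and 1.29 CPM in Q20 males 2, 3 and 4. Cd79a was at 21.0 CPM, against 2.45, 2.94 and 1.92 CPM, and Cd79b at 14.2 CPM, against 2.81, 2.33 and 2.09 CPM. All 3 ranked second of the 55 libraries. Its Cd3d (1.74 CPM), Cd3e (1.62 CPM) and Cd4 (4.05 CPM) were between 2.10 and 2.38 times the median, and its Gzma (1.02 CPM) and Nkg7 (1.71 CPM) were at 1.14 and 1.16 times. The sum of the 3 B cell genes was 17.6 times the sum of Cd3d and Cd3e in Q20 male 1 and 7.08 times in Q92 male 2, against a median of 4.26 over all libraries. The B to T ratio thus was the highest of the series in Q20 male 1, while Q92 male 2 lay inside the range of the female libraries (2.30 to 7.77).

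**Figure D2:**
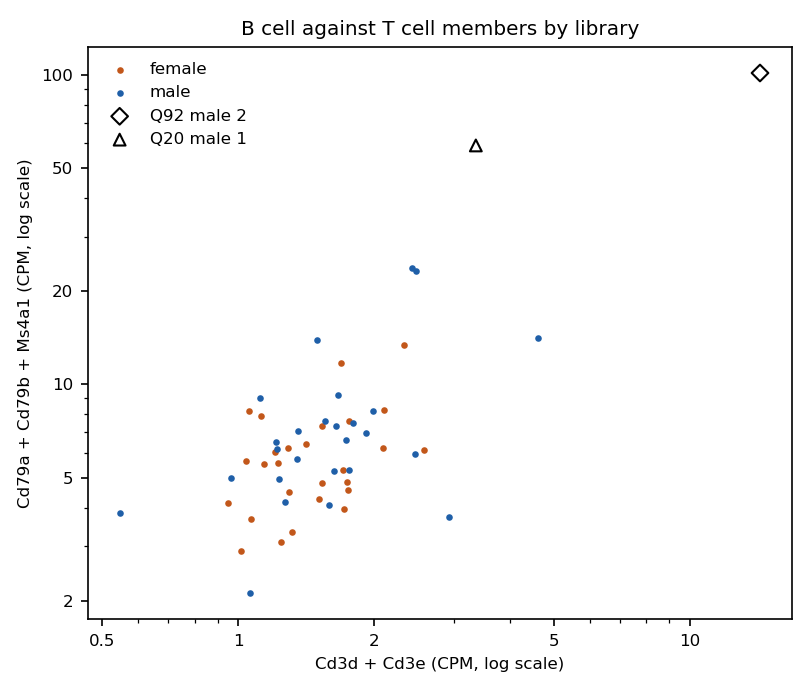
Summed CPM of the B cell genes (vertical, log scale) against summed CPM of Cd3d and Cd3e (horizontal, log scale), 1 point per library. Q92 male 2 lies at 14.3 and 101 CPM, and Q20 male 1 at 3.36 and 59.1 CPM, above every other library on the vertical axis.

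Several other male libraries were high in some of the genes. Q80 males 2 and 4 followed in Cd79a (8.92 and 9.32 CPM), where Q80 males 1 and 3 had 1.69 and 1.39 CPM. Q80 male 2 was also second in Cd4 (11.5 CPM). Q111 male 3 was second in Cd3d (2.61 CPM), Cd3e (1.99 CPM), Cd8a (2.46 CPM) and Nkg7 (5.42 CPM), with Cd79a at 5.80 CPM. The wider T cell list summed to 81.0 CPM there, below the 92.4 CPM of Q80 male 2. Q111 male 3 also had the highest Gzmb (2.41 CPM), a granzyme, and Klrb1c (3.21 CPM), a natural killer cell receptor, of all 55. Gzma peaked elsewhere, in Q140 male 4 (2.04 CPM), whose sex genes contradict its label, and in Q175 male 1 (1.99 CPM).

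Wider marker lists were high in the same libraries. Of 16 other B cell genes, 14 were highest in Q92 male 2, among them Ighm (6111 CPM; median of all 515), Igkc (1184; 49.3) and Cd22 (31.5; 1.32). Of 23 other T cell genes, 20 were highest there, as were 10 of 15 natural killer and cytotoxic genes. Of 6 genes of the stroma that organises lymph nodes, 3 were highest in Q92 male 2 (Cxcl13, Ccl19 and Glycam1). Madcam1 peaked in Q140 female 4 (0.431 CPM) and Chst4 in Q80 male 4 (8.96 CPM). The B cell attractant Cxcl13 was at 98.6 CPM in Q92 male 2 and 85.7 CPM in Q20 male 1 (median 3.99). Ccl21a, which guides T cells, was at 138 and 47.9 CPM (median 26.9), with the highest value, 224 CPM, in Q80 male 2. Ccl19 was at 16.5 CPM in Q92 male 2 and 1.39 CPM in Q20 male 1 (median 1.24). Glycam1, a marker of the vessels through which lymphocytes enter nodes, reached only 2.02 CPM in Q92 male 2 and was at 0 in 39 libraries. The summed list of 6 stromal genes came to 260 CPM in Q92 male 2, 141 in Q20 male 1 and 281 in Q80 male 2, against a range of 4.52 to 281 and a median of 34.0. High stromal sums also occurred without high members: Q175 male 2 (195 CPM), Q140 female 1 (180 CPM), Q111 male 1 (159 CPM) and Q111 female 4 (142 CPM) were above Q20 male 1, and their 9 members summed to 12.4, 11.3, 14.7 and 11.5 CPM, against a median of 12.4. Rag1, which thymocytes use to cut receptor genes, was at 0 in Q92 male 2, as in 47 libraries in all. The 4 thymocyte genes together came to 0.283 CPM there, against a median of 0.081 over all libraries. The immunoglobulin genes of plasma cells differed too: Ighg1 was at 376 CPM in Q92 male 2 (median 0.58), and Ighg2b was at 394 CPM in Q80 male 4 (median 2.20).

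Markers of the neighbouring male tract varied beside them. The list of epididymis and testis genes summed to 6396 CPM in Q20 male 1, of which Crisp1, a secreted epididymal protein, made 6125 CPM, and to 2423 CPM in Q80 male 2. In Q92 male 2 it came to 101 CPM, with the sperm protamines Prm2 (68.2 CPM) and Prm1 (30.7 CPM) in the lead. In 13 male libraries it was at 100 CPM or more, up to 26158 CPM in Q140 male 1, whose summed members stood at 11.4 CPM, below the median of 12.4. The adipocyte list was at 11683 CPM in Q20 male 1 and 18582 CPM in Q92 male 2. Whether lymphoid tissue was taken with the fat in these libraries was not tested.

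Across the 55 libraries the B cell genes moved most closely together. Of 36 pairs of members, Cd79a and Cd79b had the highest Pearson correlation of log2 CPM (r = 0.93, rho = 0.84), followed by Cd79b and Ms4a1 (r = 0.90, rho = 0.77) and Cd79a and Ms4a1 (r = 0.90, rho = 0.79). The permutation p of each r was 1e-05, the smallest that 100000 permutations can give, and 2e-05 when adjusted over the 36 pairs. Without the 2 libraries farthest from the median these r were 0.87, 0.82 and 0.80. Cd3d and Cd3e reached r = 0.75 and rho = 0.53 (permutation p 1e-05 and 2e-05, adjusted 2e-05 and 5.1e-05), or r = 0.54 without Q92 male 2 and Q111 male 3. The relation of these CD3 chains was r = 0.38 in females and 0.84 in males (rho 0.39 and 0.65). Cd79a with Nkg7 had r = 0.42 and rho = 0.18 (permutation p 0.00235 and 0.189, adjusted 0.00264 and 0.189), or r = 0.23 without Q92 male 2 and Q20 male 1. In females that pair had r = -0.14 and in males 0.56 (rho -0.08 and 0.33). Within the WT and Q175 libraries r was 0.57 for Cd79a with Cd79b and 0.26 for Cd3d with Cd3e, and within the other libraries it was 0.96 and 0.79. Q92 male 2, Q20 male 1 and Q111 male 3 are all males of those other libraries, so the r there and in males include their high values.

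The genes most like each member were found by Spearman's rho over the 55 libraries. Cd22, an inhibitory receptor of B cells, was first for Ms4a1 (rho = 0.86), Cd79a (0.80) and Cd79b (0.74). Ccl5, a chemokine made by activated T and natural killer cells, was first for Nkg7 (0.83), Cd3d (0.76) and Gzma (0.73). Trbc1, a T cell receptor constant segment, was second for Cd3d (0.74), and Il2rb, a cytokine receptor chain, second for Nkg7 (0.78). Itgal, a leukocyte integrin, was first for Cd3e (0.79). Ms4a4b was first for Cd4 (0.77) and Cd8a (0.73), and Lck, the kinase that the coreceptors carry, was among the 5 nearest to both (0.76 and 0.69).

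Males had more RNA of 5 of the 9 genes than females. Cd79a ranged from 1.04 to 4.54 CPM in females with a median of 1.89, and from 0.720 to 41.1 CPM in males with a median of 2.43. Ms4a1 ranged from 0.259 to 3.99 CPM in females (median 1.25) and from 0.734 to 31.2 CPM in males (median 1.46). The sexes overlapped over most of their range: 20 of 28 males lay above the female median for each gene, and 7 of 27 females lay above the male median for Cd79a and 10 for Ms4a1. In edgeR's quasi-likelihood test, averaged over the 7 genotypes, the log2 difference of males to females was 1.03 (SE 0.29, adjusted p 0.00326) for Cd79a and 1.21 (SE 0.33, adjusted p 0.00244) for Ms4a1. Cd79b (0.64, SE 0.26, adjusted p 0.0382), Cd4 (0.67, SE 0.26, adjusted p 0.0297) and Cd3d (0.57, SE 0.22, adjusted p 0.0283) also passed. Calls used a threshold of 0.05 on the Benjamini-Hochberg adjusted p, and this comparison called 46.3% of all genes tested, 27.9% as higher in males. The median of the 9 members was 0.57 and that of all genes 0.06.

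The other 4 genes did not pass. Cd8a differed by 0.57 (SE 0.27, adjusted p 0.0811), Cd3e by 0.37 (SE 0.21, adjusted p 0.15), Nkg7 by 0.35 (SE 0.21, adjusted p 0.165) and Gzma by 0.10 (SE 0.17, adjusted p 0.688). The medians of Gzma were 0.839 CPM in females and 0.901 CPM in males, and those of Cd3e 0.772 and 0.763 CPM. A p above the threshold does not show that these genes were alike in the sexes.

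The number of members called higher in males changed with the libraries kept. With any 1 library left out, Cd79a and Ms4a1 were called in all 55 fits. Q92 male 2 and Q20 male 1 are male and ranked 1 and 2 of 55 in Cd79a, Cd79b and Ms4a1. Leaving both out was therefore bound to lower the male estimates of these genes. Without Q92 male 2 and Q20 male 1, a choice made after the data were seen, 0 of the 9 members passed in edgeR's test, while 44.3% of all genes still did. Cd79a then differed by 0.45 (adjusted p 0.0699) and Ms4a1 by 0.47 (adjusted p 0.0821), the 2 members with an unadjusted p under 0.05. Cd3d differed by 0.25, Cd4 by 0.30 and Cd79b by 0.14. All 9 estimates stayed above 0, and the median of the members fell to 0.22. By genotype, the largest male to female difference of Cd79a was in Q92 (2.34, SE 0.78), then in Q20 (2.03, SE 0.77), where those 2 libraries belong. It was 1.21 (SE 0.75) in Q80, 0.67 in Q111, 0.53 in Q140, 0.35 in WT and 0.09 in Q175.

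**Figure D3:**
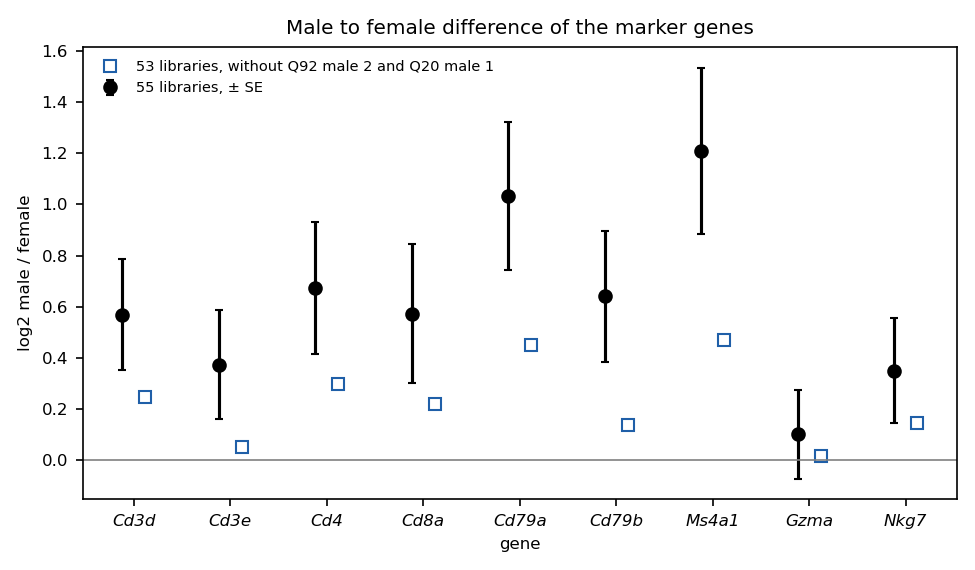
Log2 male to female difference of each marker gene, as the mean over genotypes. Filled points with bars are all 55 libraries ± SE, and open squares are the 53 libraries without Q92 male 2 and Q20 male 1, where Cd79a drops from 1.03 to 0.45 and Ms4a1 from 1.21 to 0.47.

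The wider B cell list was counted with and without the same libraries. Of its 16 genes, 13 were higher in males and none lower over all libraries, against 27.9% of all genes called higher in males. Without the 2 libraries 10 of 16 were higher, against 25.6% of all genes, and the median of the list fell from 0.98 to 0.47. Fcmr, a receptor for immunoglobulin M (log2 difference 1.36, SE 0.30, adjusted p 0.000253), Fcer2a, the low-affinity receptor for immunoglobulin E (1.53, SE 0.34, adjusted p 0.00029), Cd22 (adjusted p 0.00037) and the transcription factor Spib (1.36, SE 0.31, adjusted p 0.000371) led the list, and all 4 were among the 10. Of 23 T cell genes 17 were higher in males and 1, Thy1, was lower, against 9 higher and 2 lower without the 2 libraries. Lef1, a transcription factor of naive T cells that other tissues also express, had the largest difference of that list (2.09, SE 0.34, adjusted p 3.82e-06), and its highest level was in Q92 male 1 (17.0 CPM). Foxp3, the transcription factor of regulatory T cells, differed by 1.42 (SE 0.29, adjusted p 0.000108). Of 14 natural killer and cytotoxic genes tested 7 were higher in males, led by Gzmb (0.83, SE 0.21, adjusted p 0.00124), and 5 without the 2 libraries. Of 9 plasma cell genes 2 were higher and 1 lower in males, and 1 was higher and 3 lower without them.

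Markers of other cell types are given beside the shares of all genes called higher (27.9%) and lower (18.3%) in males. All 5 erythroid genes were higher in males (Alas2 by 1.25, SE 0.12), and their sum was 597 CPM in females and 1246 CPM in males by the median. Of 8 epididymis and testis genes tested 5 were higher in males, 1 of 9 macrophage genes (Lyz2) was higher, and 3 of 5 mesothelial genes were lower. Of 6 pan-leukocyte genes 5 were higher in males, and 2 were without Q92 male 2 and Q20 male 1. Higher in males were also 2 of 3 granulocyte genes (S100a8 and S100a9) and 1 of 6 dendritic cell genes (Itgax). Of 5 stromal genes of lymphoid tissue 2 were higher in males, Ccl19 by 1.60 (SE 0.24) and Ccl21a by 2.18 (SE 0.47), and both were still called without the 2 libraries. The summed stromal list ranged from 4.52 to 180 CPM in females (median 15.03) and from 13.5 to 281 CPM in males (median 64.3). The 180 CPM of Q140 female 1 and the 13.5 CPM of Q140 male 4 came from the libraries whose sex genes contradict their labels. The part of these tissues in the male levels of the members was not tested.

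Between genotypes, none of the 9 genes was called. By the median of a genotype, Cd79a was between 1.78 CPM (Q92) and 2.33 CPM (Q140). Cd3e was between 0.58 CPM (Q80) and 0.91 CPM (Q175), and Cd8a between 0.62 CPM (Q20) and 0.85 CPM (Q175). Ms4a1 was between 1.15 CPM (Q92) and 2.14 CPM (Q175), and Cd4 between 1.33 CPM (WT) and 2.53 CPM (Q175). In each of these genes the ranges of all 7 genotypes overlapped. In edgeR's test 0 of 9 members were called in Q175 against WT (10.4% of all genes called), Q175 against Q20 (14.2%), Q20 against WT (0.753%) and Q92 against Q20 (6.11%). Neither were any in Q80, Q111 or Q140 against Q20, where 0% of all genes were called. At an unadjusted p under 0.05 there were 3 of the 90 values of the members in these and the CAG and sex-by-genotype comparisons, and DESeq2 called 0.

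Those 3 values involved the libraries that stood apart. Ms4a1 was higher in Q20 than in WT by 1.53 (SE 0.64, p 0.0219, adjusted p 0.357), and by 0.27 without Q92 male 2 and Q20 male 1. Its values were 1.27, 0.739 and 0.259 CPM in WT females and 1.40, 0.898, 1.40 and 1.90 CPM in WT males. They were 1.52, 0.747, 0.847 and 2.02 CPM in Q20 females, next to the Q20 males given above. The groups of both genotypes overlapped apart from Q20 male 1. Cd8a was higher in Q92 than in Q20 by 1.08 (SE 0.51, p 0.0388, adjusted p 0.243), and by 0.35 without those libraries. The third is the sex difference of the CAG slope for Cd79a, given below.

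Against WT, Q175 mice had Ms4a1 at a log2 difference of 1.02 (SE 0.63, adjusted p 0.324), Cd4 at 0.59 (SE 0.50, adjusted p 0.5), Cd8a at 0.41 and Cd3d at -0.04. The Ms4a1 values of Q175 were 1.44, 2.22, 1.83 and 2.06 CPM in females and 3.06, 1.20, 2.72 and 2.28 CPM in males. Of these 8 libraries 5 lay above every WT library and 3 within the WT range. Other leukocyte genes were called in this comparison, in which 3.34% of all genes were called higher in Q175. Of 9 macrophage genes 4 were higher in Q175 (Adgre1, Csf1r, Mrc1 and Cd163), as were 1 of 6 pan-leukocyte genes (Ptprc, the common leukocyte antigen), 1 of 23 T cell genes (Thy1, which fibroblasts also carry) and 1 of 6 genes of innate lymphoid and gamma delta T cells (Il1rl1). No gene of the B cell or the natural killer list was. Siglech, 1 of 6 dendritic cell genes, and Crisp1 and Gpx5, 2 of 8 epididymis and testis genes, were also called higher in Q175. The epididymis and testis list summed to between 495 and 2843 CPM in Q175 males and between 0.555 and 23.0 CPM in WT males. The adipocyte list came to between 11255 and 14548 CPM in Q175 males and between 20213 and 21155 CPM in WT males. The part of this tissue content in the called genes was not tested. Without Q92 male 2 and Q20 male 1, 2 of 16 B cell genes (Cd37 and Bank1) were called higher in Q175. In that fit 4.64% of all genes were called higher, but no member and no natural killer gene.

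**Figure D4:**
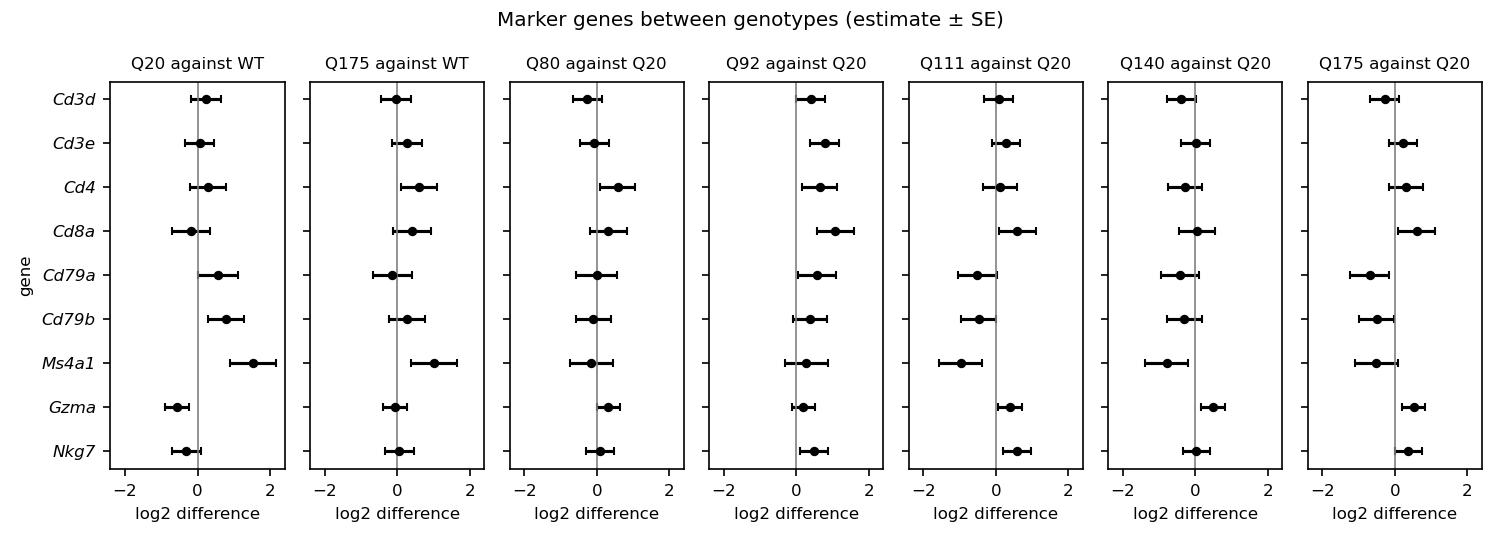
Log2 differences of the marker genes between genotypes, averaged over the sexes, with SE bars. The widest estimate is Ms4a1 in Q20 against WT at 1.53, and none of the values passed the adjusted threshold.

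Along CAG length, over the 6 knock-in genotypes, 0 of 9 members were called (8.32% of all genes called). Slopes per 100 repeats ran from -0.54 (SE 0.31, adjusted p 0.309) for Cd79a to 0.34 (SE 0.19, adjusted p 0.283) for Gzma. The 3 B cell genes had slopes below 0 and Gzma, Nkg7, Cd8a and Cd3e above 0, with none distinct from 0. The male minus female difference of the effect of Q175 against WT was called for 0 of 9 members and for 0.0284% of all genes. The slope over CAG length also had 0 of 9 called for its male minus female difference, where 0% of all genes were called. There Cd79a was at -1.35 (SE 0.63, p 0.0387, adjusted p 1) and Ms4a1 at -1.43 (SE 0.71, adjusted p 1). Without Q92 male 2 and Q20 male 1 these became -0.26 and 0.23, so Ms4a1 changed sign.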

How the data were processed

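Messenger RNA of gonadal white fat was profiled in 55 libraries. The authors deposited 1 table of expected counts, as its fractional, unscaled values show, and 1 table named as FPKM, a unit in which the authors divided reads by gene length and library depth. Of nonzero counts 33.7% were not whole, and all were rounded. The submitters' processing notes name CASAVA 1.8.2, and an aligner, counter or build is not given in the sources used here. Symbols came from GENCODE M21.

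Counts were tested in edgeR 4.0.16 (R 4.3.3) with TMM scaling, filterByExpr (21113 genes), 1 mean per group of genotype and sex in 14 groups, and a robust quasi-likelihood fit, with Benjamini-Hochberg adjustment over all genes tested and a threshold of 0.05. Genotype differences average the sexes, and the sex difference averages the genotypes. The CAG slope is per 100 repeats. CPM uses TMM-scaled library sizes, and correlations use log2 CPM with a prior count of 2. Alternatives used DESeq2 1.42.0 and limma 3.58.1, among them log2 FPKM with 0.1 or 1 added. Fits that left out 1 library kept the dispersion trend of all libraries. The script was tested on simulated data.

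The members and marker lists were chosen with earlier results of these data known. Named genes were the 9 members, up to 4 called genes of smallest p per list and comparison, the 5 genes most like each member, and the markers highest in libraries that stood apart; a few others are named after their values were seen. The labels do not say that libraries came from separate animals, so p-values measure the spread between these samples. Depth limits counting error only, since reads carried no molecular identifiers. No pair of replicates agreed within sampling noise. A gene of the lists is not reported here by name.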

Additional observations from a re-analysis of the deposited data

Results flagged for a closer look

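Within groups of 4, a library was marked where the gap to its nearest neighbour took up most of the group's range (Dixon's 95% limit). Of 117 groups of a member, 19 were marked, and chance marks about 1 in 20, or 5.85. Values are CPM.

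Q92 male 2 was marked in 8 of the 9 genes, at 7.68 for Cd3d, 6.61 for Cd3e, 18.7 for Cd4, 9.01 for Cd8a, 41.1 for Cd79a, 29.0 for Cd79b, 31.2 for Ms4a1 and 7.70 for Nkg7. Q20 male 1 was marked in 4, at 4.05 for Cd4, 21.0 for Cd79a, 14.2 for Cd79b and 23.8 for Ms4a1. Together they make up 12 of the 19.

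The other 7 were smaller. Q111 female 1 was high in Cd3d (1.62) and Nkg7 (3.30) against the other Q111 females. Ms4a1 in Q140 male 3 was at 4.10, Cd79b in Q175 male 3 at 2.82 and Gzma in Q80 male 2 at 1.14. Nkg7 was at 2.02 in Q20 female 2 and at 2.18 in Q175 female 2.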

How the results depend on the processing

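For the 10 comparisons other than male against female, no member was called, and leaving out any 1 library kept that count at 0. The exceptions among the other settings were limma voom with sample quality weights, with 1 member (Ms4a1) for Q175 against WT, 4 (Cd3e, Cd4, Cd8a and Gzma) for Q175 against Q20 and 1 (Gzma) for the CAG slope, in fits that also called 39.9%, 49.5% and 35.4% of all genes. Male against female called 5 members. Leaving out 1 library gave 2 to 6: it was 2 without Q80 male 2 or without Q92 male 2, and 3 without Q20 male 1 or Q111 male 3. Cd79a and Ms4a1 were called in all 55 of these fits and Cd79b in 42. The count was 0 with voom quality weights and with lane as a factor, 3 and 2 on log2 FPKM with 0.1 and 1 added, 2 without libraries high in lymphoid stroma genes, 3 without those high in pancreas genes, and 1 without those high in epididymis and testis genes in an additive design. It was 0 without Q92 male 2 and Q20 male 1, and 0 when the 2 libraries whose sex genes contradict their labels were left out as well. These last settings, and the additive design of all libraries (5), were chosen after seeing the data. The cause of these changes was not tested. It was 5 with RLE scaling, DESeq2, the length trend removed or the sex-contradicting libraries left out, and 4 without the low-count filter. With the replicate number as a block it was also 5; same-numbered libraries did not deviate together (median r 0.01), so the number does not pair them. The epididymis setting could not be run for the sex-by-genotype comparisons, since it left no Q175 male. The lowest counts of the members in a library, 5 reads for Cd8a and 7 for Cd3e, limit the precision of single values.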
